A study of Homo sapiens with 8 samples.

Results

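The genes described here are a set of 56 human genes of DNA replication and of the step from G1 into S phase, chosen by name: the licensing factors, helicase, polymerases, clamp and clamp loader, nucleotide suppliers, E2F factors, cyclins E and S-phase chromatin proteins. Of the 56, 29 had a probe set that was paired with 1 gene symbol, among 14884 genes tested in all. For the 2 members with a pair of named probe sets, CLSPN and GINS4, the brighter one was used. All 6 subunits of the MCM helicase, MCM8 and MCM10, all 6 origin firing factors, and E2F1, E2F2, CCNE1 and CCNE2 were measured. The others measured were CDC6 and CDT1 of 8 loading and licensing factors, PCNA, FEN1 and DSCC1 of 9 clamp, clamp loader and Okazaki maturation genes, RRM1, RRM2 and TYMS of 4 nucleotide supply genes, and UHRF1, CLSPN and SLBP of 5 genes of chromatin and S-phase control. The remaining 27 had no probe set paired with 1 gene symbol and are not analysed here. These are the 9 polymerase and primase genes, 3 RPA genes, 5 listed ORC genes, RFC1 to RFC5, GMNN, LIG1, TK1, CHAF1A and CHAF1B.

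RNA was measured on 8 whole-transcript microarrays of SCC13 cells, an established line from a cutaneous squamous cell carcinoma. The cells carried a short hairpin RNA against EZH2 (shEZH2), RING1B (shRING1B) or BMI1 (shBMI1), or against GFP (shGFP), a protein that human cells do not make, with 2 arrays for each hairpin. EZH2 is the methyltransferase of Polycomb repressive complex 2, and RING1B (gene RNF2) and BMI1 belong to Polycomb repressive complex 1. The labels give no age of the culture, no time after the hairpin and no clone or pool. Nor do they state that replicate arrays hold RNA of separate cultures, so the p-values may rest on technical spread alone.

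Values are log2 expression as the authors deposited it. EZH2 itself was at 8.95 and 9.03 with shEZH2, 9.62 and 9.86 with shRING1B, 9.74 and 9.93 with shBMI1, and 9.83 and 9.97 with shGFP. It fell with shEZH2 against shGFP by 0.91 ± 0.12 on the log2 scale (standard error, adjusted p = 0.0183). BMI1 and RNF2 had no probe set paired with 1 gene symbol, so those hairpins have no such check here. Correlations between arrays over the named genes were 0.995 to 0.996 within a hairpin, 0.992 to 0.993 between a shEZH2 array and an array of another hairpin, and 0.993 to 0.996 between arrays of the other hairpins. Both shEZH2 arrays have SCCL3 in front of their titles, where the other 6 have SCC13, while the cell line is given as SCC13 for all 8, so a different source or handling of the shEZH2 cells cannot be told apart from the hairpin. Of 14 listed keratinocyte and squamous markers 7 were measured, and 6 were above the upper quartile of all probe sets on all 8 arrays. Also measured were 3 of 9 fibroblast, 5 of 7 endothelial and 5 of 6 melanocyte markers, of which none was above it. Of 13 leukocyte markers 5 were measured, and 1 was above it, the lysosomal protein gene CD68.

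Before S phase, cells load the MCM helicase onto origins with the help of ORC, CDC6 and CDT1, and a kinase then joins it to CDC45 and the GINS complex so that it unwinds DNA. Polymerases, the PCNA clamp and its loader copy the strands while ribonucleotide reductase and thymidylate synthase supply the building blocks. Most of these genes are transcribed in a wave at the G1/S boundary through E2F factors, which RB proteins hold back until cyclin kinases release them, and EZH2 is itself known as an E2F target.

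With shEZH2, the replication genes lay below shGFP across nearly the whole set, by small amounts. All 29 members had a negative log2 fold change, with a median of -0.31 and a range of -0.57 to -0.01, although the smallest, that of CCNE1, turned positive under a second quantile normalization (0.04). Over all 14884 genes, 51.9% were negative and the median was -0.01. MCM5, a helicase subunit, and MCM10, which helps to activate the helicase, fell at an adjusted p under 0.05 (limma, Benjamini-Hochberg over all genes). These 2 of 29 members stand beside 0.175% of all genes called lower, and no member rose, against 0.558% of all genes called higher. Both shEZH2 arrays lay below both shGFP arrays for 27 of the 29 members, as they did for 27% of all genes. At an unadjusted p under 0.05, 21 members were lower, against 8.65% of all genes. Both calls depended on all 8 arrays being in the fit: leaving out any 1 array, of shEZH2, shGFP or another hairpin, left 0 members called. Among other settings, 0 members were called with only the 4 arrays compared or all probe sets tested, and 1 (MCM5) after a second quantile normalization. Without the dimmest 30% of genes there were 8, and with a trended robust variance 13. The main fit called 0.732% of all genes, lower or higher. In these settings, in the order given, the share was 0.262%, 0.00746% (of all probe sets), 0.638%, 3.93% and 4.35%.

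**Figure D1:**
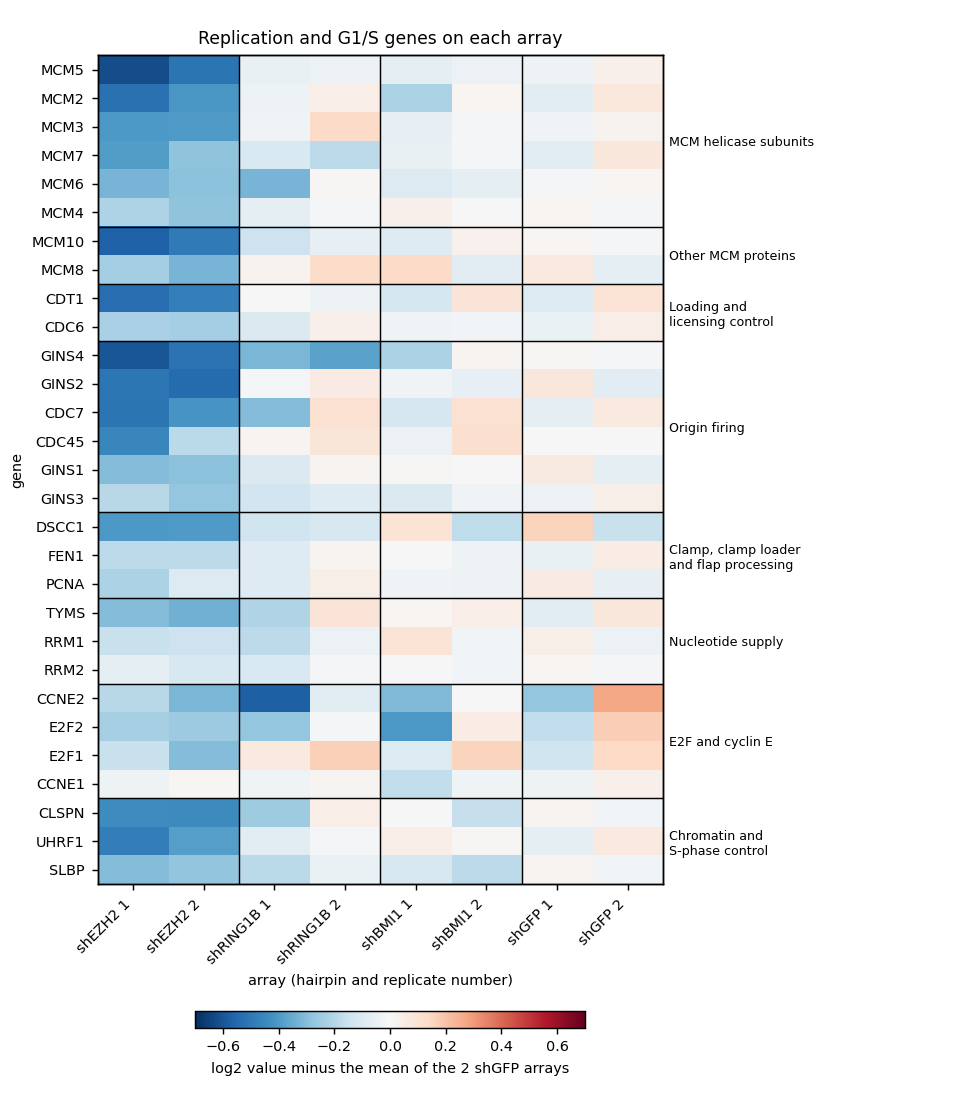
Log2 expression of the 29 members on each array, drawn as the difference from the mean of the 2 shGFP arrays (color scale from -0.7 to 0.7), with genes grouped by role and arrays in columns by hairpin. The shEZH2 columns are below shGFP for nearly all genes. The other columns hold values on both sides of 0, with low ones for CCNE2 and MCM6 on 1 shRING1B array, GINS4 on both shRING1B arrays and E2F2 on 1 shBMI1 array.

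The same shift is seen array by array. Taking each member's difference from its mean over the 8 arrays, the average over the 29 members was -0.23 and -0.21 on the shEZH2 arrays, -0.02 and 0.10 on the shRING1B arrays, 0.04 and 0.10 on the shBMI1 arrays, and 0.08 and 0.13 on the shGFP arrays. On the shEZH2 arrays 29 and 28 of the members were below their own mean, against 4 and 3 on the shGFP arrays. In RNA from whole cultures, fewer cells in S phase and less of each mRNA per cell cannot be told apart. DCN, a fibroblast matrix gene, was at 8.03 and 7.86 with shEZH2 and at 6.94 and 7.08 with shGFP, and rose by 0.93 ± 0.10 (adjusted p = 0.0109). The mean of the 3 measured fibroblast markers was 6.26 to 6.47 with shEZH2 and 5.73 to 5.88 with shGFP, with LUM at 0.89 ± 0.23 (adjusted p = 0.12) and THY1 at -0.15 ± 0.15 (adjusted p = 0.669). The mean of the 5 melanocyte markers was 5.11 to 5.17 with shEZH2 and 5.04 to 5.05 with shGFP, with MLANA called higher (0.64 ± 0.11, adjusted p = 0.046) and the other 4, PMEL, TYR, TYRP1 and MITF, at -0.15 to 0.0024. The mean of the 5 leukocyte markers was 7.24 on both shEZH2 arrays and 6.97 to 7.10 with shGFP, with all 5 above shGFP, from 0.14 for CD68 to 0.27 for CD14, and 0 called. The mean of the 7 keratinocyte markers was 9.89 to 9.90 with shEZH2 and 9.90 to 9.96 with shGFP, with the basal keratin KRT14 at -0.57 ± 0.13 (adjusted p = 0.0999), the desmosomal DSG3 at 0.43 ± 0.13 (adjusted p = 0.176) and 0 called. The mean of the 5 endothelial markers was 5.44 to 5.55 with shEZH2 and 5.49 with shGFP, with 0 called. The part of these cell type markers in the replication values was not tested.

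The MCM2 to MCM7 subunits form the ring that unwinds the double helix, and their median log2 fold change with shEZH2 against shGFP was -0.37. Of the 6, 1 was called lower, beside 0.175% of all genes. MCM5 was at 9.27 and 9.38 with shEZH2, 9.84 and 9.85 with shRING1B, 9.83 and 9.86 with shBMI1, and 9.86 and 9.93 with shGFP. The 6 arrays without the EZH2 hairpin thus lay within a narrow band, and both shEZH2 arrays were well under it. Its level fell with shEZH2 against shGFP by 0.57 ± 0.08 (95% interval -0.76 to -0.37), which is 1.48-fold lower (adjusted p = 0.0312). MCM2 was at 8.87 and 8.99 with shEZH2, 9.36 and 9.44 with shRING1B, 9.18 and 9.41 with shBMI1, and 9.32 and 9.47 with shGFP. MCM3 was at 10.68 and 10.69 with shEZH2, 11.06 and 11.22 with shRING1B, 11.03 and 11.08 with shBMI1, and 11.06 and 11.11 with shGFP. For both genes every other array was above the shEZH2 arrays, but the fold changes against shGFP missed the threshold, at -0.47 ± 0.11 (adjusted p = 0.103) for MCM2 and -0.40 ± 0.09 (adjusted p = 0.094) for MCM3. MCM7 was at 10.27 and 10.38 with shEZH2, 10.56 and 10.48 with shRING1B, 10.61 and 10.65 with shBMI1, and 10.58 and 10.74 with shGFP. Its fold change with shEZH2 against shGFP was -0.34 ± 0.09 (adjusted p = 0.145). MCM6 was at 10.19 and 10.23 with shEZH2, 10.19 and 10.52 with shRING1B, 10.42 and 10.45 with shBMI1, and 10.51 and 10.53 with shGFP. One shRING1B array was as low as the shEZH2 arrays for this gene. MCM4 and MCM6 had fold changes of -0.25 ± 0.08 and -0.31 ± 0.11 with shEZH2 against shGFP (adjusted p = 0.199 and 0.245), so that all 6 subunits were below shGFP and 1 passed the test.

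MCM10, which joins the helicase as it fires, was at 9.13 and 9.20 with shEZH2, 9.55 and 9.64 with shRING1B, 9.61 and 9.73 with shBMI1, and 9.71 and 9.68 with shGFP. Here too the groups with and without the EZH2 hairpin did not overlap. Its level fell with shEZH2 against shGFP by 0.53 ± 0.09 (95% interval -0.74 to -0.33), 1.45-fold lower (adjusted p = 0.0457). MCM8, a relative that acts with MCM9 in DNA repair by recombination, was at -0.28 ± 0.11 (adjusted p = 0.253).

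CDC6 and CDT1 bring the helicase to the origin. CDT1 was at 8.99 and 9.04 with shEZH2, 9.52 and 9.48 with shRING1B, 9.40 and 9.61 with shBMI1, and 9.43 and 9.62 with shGFP. The lowest of the other 6 arrays was well above both shEZH2 arrays, with a fold change against shGFP of -0.50 ± 0.11 that did not pass the test (adjusted p = 0.0892). CDC6 differed by less, at -0.23 ± 0.09 (adjusted p = 0.256).

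The firing factors turn the loaded helicase into a moving one. With shEZH2 all 6 were below shGFP at an unadjusted p under 0.05, beside 8.65% of all genes. Their median was -0.39, and 0 were called by limma after adjustment, beside 0.175% of all genes called lower. GINS2, a subunit of the 4-part GINS complex, was at 10.27 and 10.24 with shEZH2, 10.77 and 10.84 with shRING1B, 10.76 and 10.72 with shBMI1, and 10.86 and 10.70 with shGFP. The shEZH2 arrays were close together and far below the rest, and the fold change against shGFP was -0.52 ± 0.09 (95% interval -0.73 to -0.32, adjusted p = 0.0509), which just missed the threshold. GINS4 was at 7.46 and 7.54 with shEZH2, 7.74 and 7.68 with shRING1B, 7.84 and 8.08 with shBMI1, and 8.07 and 8.05 with shGFP. For this gene the shRING1B arrays lay between the shEZH2 arrays and the shGFP arrays. Its fold change with shEZH2 against shGFP was -0.56 ± 0.10 (95% interval -0.79 to -0.32, adjusted p = 0.0639). GINS1 was at 9.95 and 9.97 with shEZH2, 10.16 and 10.27 with shRING1B, 10.26 and 10.26 with shBMI1, and 10.32 and 10.19 with shGFP, a fold change against shGFP of -0.30 ± 0.09 (adjusted p = 0.176). The remaining firing factors were the kinase CDC7 (-0.46 ± 0.15), the helicase partner CDC45 (-0.32 ± 0.11) and GINS3 (-0.23 ± 0.09). Each had both shEZH2 arrays below both shGFP arrays, as did 27% of all genes.

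**Figure D2:**
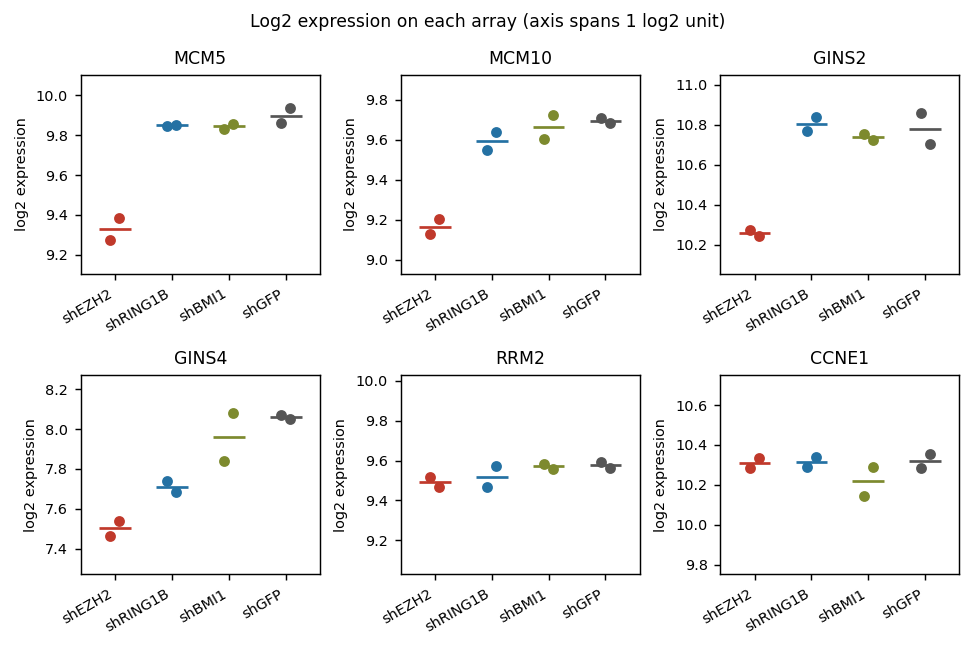
Log2 expression (vertical axis, 1 log2 unit high in each panel) of MCM5, MCM10, GINS2, GINS4, RRM2 and CCNE1 by hairpin, with a point for each array and a bar at the mean of 2. For MCM5, MCM10 and GINS2 the shEZH2 points lie below all other points, whereas for CCNE1 they lie between the shGFP points.

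Of the 3 genes that act at the fork and the 3 that supply nucleotides, none was called with shEZH2 against shGFP. Over all genes, 0.175% were called lower and 0.558% higher. DSCC1 and TYMS were lower at an unadjusted p under 0.05, beside 8.65% of all genes. PCNA, the sliding clamp, was at -0.16 ± 0.09 with shEZH2 against shGFP (adjusted p = 0.45), FEN1, the flap nuclease of Okazaki fragments, at -0.18 ± 0.09 (adjusted p = 0.343), and DSCC1, a part of an alternative clamp loader, at -0.40 ± 0.13 (adjusted p = 0.196). RRM1 and RRM2, the subunits of ribonucleotide reductase, were at -0.15 ± 0.09 and -0.09 ± 0.08 (adjusted p = 0.47 and 0.653), and TYMS, thymidylate synthase, at -0.32 ± 0.12 (adjusted p = 0.236). RRM1 was at 9.75 and 9.77 with shEZH2, 9.73 and 9.87 with shRING1B, 10.01 and 9.89 with shBMI1, and 9.95 and 9.87 with shGFP, so that the shEZH2 and shRING1B arrays overlapped. The median of the 3 clamp and Okazaki genes was -0.18 and that of the 3 nucleotide genes -0.15, and the difference between roles was not tested. For RRM2 the 95% interval was -0.28 to 0.11, which does not reach the estimate for MCM5. That estimate was picked as the lowest of all members, and its own error is not counted in. The difference between these genes was not tested.

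E2F1 and E2F2 activate G1/S genes, and cyclins E1 and E2 (CCNE1, CCNE2) drive CDK2 at the entry to S phase. None of the 4 passed an unadjusted p of 0.05 with shEZH2 against shGFP, where 0 were called by limma and the median was -0.24. Of all genes, 8.65% were lower at that p, 0.175% were called lower and 0.558% called higher. CCNE1 was at 10.29 and 10.34 with shEZH2, 10.29 and 10.34 with shRING1B, 10.15 and 10.29 with shBMI1, and 10.28 and 10.36 with shGFP. The shEZH2 arrays lay inside the shGFP pair, and the fold change was -0.01 ± 0.09 with a 95% interval of -0.22 to 0.20 (adjusted p = 0.969). That interval does not reach the estimates for MCM5 and MCM10, the members with the smallest p. Those estimates were picked as extremes of the same members, and their own errors are not counted in. The differences between these genes were not tested. CCNE2 was at 8.98 and 8.86 with shEZH2, 8.61 and 9.10 with shRING1B, 8.87 and 9.17 with shBMI1, and 8.91 and 9.45 with shGFP. E2F2 was at 6.99 and 6.97 with shEZH2, 6.96 and 7.21 with shRING1B, 6.82 and 7.27 with shBMI1, and 7.05 and 7.40 with shGFP. For both genes the replicate arrays stood further apart in each of the other groups than with shEZH2, and the fold changes with shEZH2 against shGFP had wide errors, at -0.26 ± 0.21 for CCNE2 and -0.24 ± 0.17 for E2F2. E2F1 was at -0.23 ± 0.13 (adjusted p = 0.423).

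UHRF1 links DNA methylation to newly copied DNA, CLSPN (claspin) carries the checkpoint signal at the fork, and SLBP binds the mRNA of the replication-dependent histones. UHRF1 was at 9.95 and 10.05 with shEZH2, 10.35 and 10.43 with shRING1B, 10.48 and 10.44 with shBMI1, and 10.36 and 10.50 with shGFP, a fold change against shGFP of -0.43 ± 0.09 (adjusted p = 0.0874). CLSPN was at 8.23 and 8.23 with shEZH2, 8.43 and 8.72 with shRING1B, 8.67 and 8.52 with shBMI1, and 8.69 and 8.65 with shGFP, a fold change of -0.44 ± 0.11 (adjusted p = 0.121). SLBP was at 10.67 and 10.70 with shEZH2, 10.78 and 10.92 with shRING1B, 10.86 and 10.78 with shBMI1, and 10.99 and 10.95 with shGFP, a fold change of -0.29 ± 0.09 (adjusted p = 0.18). For all 3 the shEZH2 arrays were the lowest of the 8. The share of all genes with that pattern was not counted, while 27% had both shEZH2 arrays below both shGFP arrays. None of the 3 passed the adjusted test, beside 0.175% of all genes called lower and 0.558% higher.

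**Figure D3:**
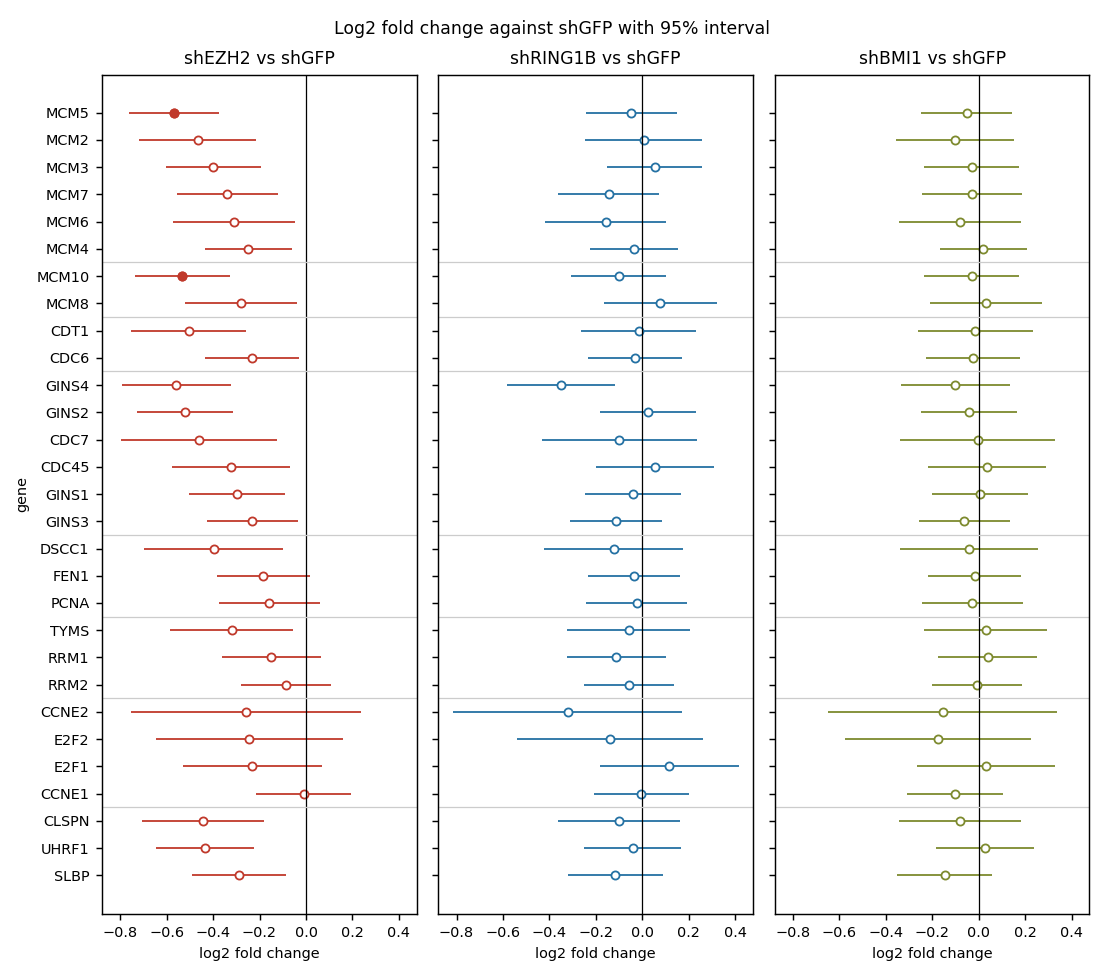
Log2 fold change of each member with shEZH2, shRING1B and shBMI1 against shGFP (horizontal axis), with genes in rows by role. Points are estimates, bars 95% intervals, and filled points have an adjusted p under 0.05: only MCM5 and MCM10 with shEZH2. The 3 comparisons share the 2 shGFP arrays.

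Since many of the members are known E2F targets, the DNA before their transcription starts was read for E2F motifs. The sequences are RefSeq's, on GRCh38.p14, and 24 of the 29 members had an entry covering 250 bases before to 50 after a start. Of the members called in any comparison, MCM10 and GINS2 had one. MCM6, with the most E2F motifs, and CCNE1, with no motif, were added after their motifs were counted. Each line below gives the 160 bases before a start, 5′ to 3′ on the gene's strand, with capitals for any letters of an E2F motif or a CCAAT box on either strand. The stretches are chr10:13161398-13161557 on the plus strand for MCM10, chr16:85688955-85689114 on the minus strand for GINS2, chr2:135876444-135876603 on the minus strand for MCM6 and chr19:29811831-29811990 on the plus strand for CCNE1.
MCM10: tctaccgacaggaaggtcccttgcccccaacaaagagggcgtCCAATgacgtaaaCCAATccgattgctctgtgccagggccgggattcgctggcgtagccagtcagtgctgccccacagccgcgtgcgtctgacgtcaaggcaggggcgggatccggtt
GINS2: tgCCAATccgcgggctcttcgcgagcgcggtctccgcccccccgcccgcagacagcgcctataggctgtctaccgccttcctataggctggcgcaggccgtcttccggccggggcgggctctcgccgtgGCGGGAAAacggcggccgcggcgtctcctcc
MCM6: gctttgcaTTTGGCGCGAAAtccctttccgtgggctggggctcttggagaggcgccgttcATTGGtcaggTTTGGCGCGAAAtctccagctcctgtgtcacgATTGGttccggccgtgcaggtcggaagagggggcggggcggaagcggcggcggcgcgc
CCNE1: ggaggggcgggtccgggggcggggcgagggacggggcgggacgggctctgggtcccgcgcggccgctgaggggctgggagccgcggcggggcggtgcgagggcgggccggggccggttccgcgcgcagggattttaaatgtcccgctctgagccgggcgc

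The motifs searched, on both strands, were the E2F sites TTTCGCGC, TTTGGCGC and TTTCCCGC, the CCAAT box CCAAT, which NF-Y binds, and the CHR element TTTGAA of late cell cycle genes. GINS2 had 1 E2F motif, TTTCCCGC on the opposite strand, at 31 to 24 bases before the start, and a CCAAT box far upstream of it. MCM6 had 4 matches in 2 places, since TTTGGCGC on 1 strand and TTTCGCGC on the other share bases. MCM10 had 2 CCAAT boxes and no E2F motif, and CCNE1 had none of the motifs in this window, which says only that these letters are not there. In all, 17 of the 24 members (70.8%) held at least 1 of the 3 E2F motifs, against 717 of the 15842 genes with a promoter in the table (4.53%). CCAAT boxes were found in 15 of the 24 members (62.5%), against 42.1% of all genes. The CHR element was in 1 of the 24 members (4.17%), RRM1, against 15.9% of all genes. The members without an E2F motif in the window were CCNE1, CDC45, FEN1, MCM10, RRM1, RRM2 and SLBP.

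**Figure D4:**
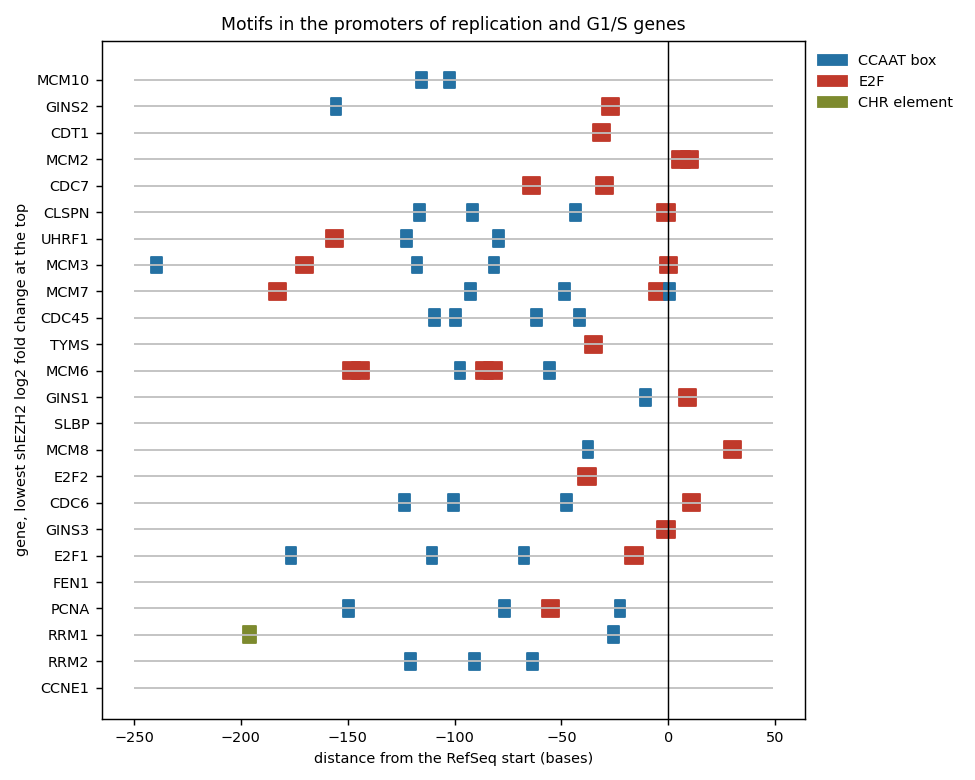
Motifs in the promoters of 24 members, with the distance from the transcription start in bases on the horizontal axis and genes in rows, ordered by their log2 fold change with shEZH2 against shGFP. Red marks stand for E2F motifs, blue for CCAAT boxes and green for CHR elements, at the RefSeq start with the most E2F motifs. Motifs were found in 17 members for E2F, 15 for CCAAT and 1 for CHR.

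With shEZH2 against shGFP, the 17 members with an E2F motif had a median log2 fold change of -0.32 and the 7 without one a median of -0.18, but MCM10, the called member with a sequence, was among the 7. Outside the members, 430 measured genes held an E2F motif. Other replication, G1/S and mitosis genes, listed below, were not taken out of these. Of these, 62.6% had a negative fold change with shEZH2, with a median of -0.06, against 53.2% of 9253 genes without a motif (median -0.01). At an unadjusted p under 0.05, 19.8% of those with the motif and 9.1% of those without were lower. With shEZH2 the 430 genes included 2 that were called lower, EZH2 itself and SERTAD4, named after their values were seen. With shRING1B against shGFP 59.1% of genes with the motif and 51.4% without were negative, and 3.95% and 3.38% were lower at that p. With shBMI1 against shGFP these were 57.2% and 54.8%, and 2.33% and 2.37%. Members with and without a motif had medians of -0.04 and -0.06 with shRING1B, and -0.03 and -0.02 with shBMI1. These are descriptions across genes, which are not independent replicates, and the difference between the members with and without a motif was not tested.

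With shRING1B against shGFP, no replication gene passed the test, and GINS4 was the furthest below. In this comparison 23 of the 29 members were negative, beside 50.8% of all genes, and the median was -0.05 with a range of -0.35 to 0.12. No member was called by limma, as was no gene at all (0% lower and 0% higher), and 1 member was lower at an unadjusted p under 0.05, beside 3.8% of all genes. That member was GINS4, at -0.35 ± 0.10 (95% interval -0.58 to -0.12, adjusted p = 0.394). Both shRING1B arrays lay below both shGFP arrays for 7 members, beside 19.1% of all genes. The next smallest p-values belonged to MCM7 (-0.14 ± 0.09, adjusted p = 0.739), CCNE2 (-0.32 ± 0.21, adjusted p = 0.749) and MCM6 (-0.16 ± 0.11, adjusted p = 0.775). MCM5 and MCM10 were at -0.05 and -0.10. The shRING1B arrays also differed from each other: 26 of the 29 members were higher on the array labelled 2 than on the array labelled 1, with a median difference of 0.10. The median fold change without the array labelled 1 was 0.01 and without the array labelled 2 was -0.10.

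With shBMI1 against shGFP, no replication gene passed even the unadjusted test. Of the 29 members 21 were negative, beside 53.4% of all genes, with a median of -0.03 (-0.068 to -0.0093 with 1 array left out) and a range of -0.18 to 0.04. No member was called by limma (0% of all genes lower, 0% higher), and 0 had an unadjusted p under 0.05, beside 2.69% of all genes that were lower by that measure. Both shBMI1 arrays were below both shGFP arrays for 3 members, beside 17.8% of all genes. The members with the smallest p-values were SLBP (-0.15 ± 0.09, adjusted p = 0.95), CCNE1 (-0.10 ± 0.09, adjusted p = 0.998), E2F2 (-0.18 ± 0.17, adjusted p = 0.999) and GINS4 (-0.10 ± 0.10, adjusted p = 0.999). The 3 comparisons with shGFP share its 2 arrays, so a deviation of those arrays enters all of them. The median over all genes was -0.0028 with shRING1B and -0.0094 with shBMI1.

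Setting the knockdowns against each other leaves the shGFP arrays out of the difference. With shEZH2 against shRING1B, 28 of 29 members were negative, beside 51.5% of all genes, with a median of -0.26 and a range of -0.55 to 0.06, the highest being CCNE2. Here 2 members were called lower, beside 0.222% of all genes, and 0 higher, beside 0.356% of all genes: MCM5 (-0.52 ± 0.08, adjusted p = 0.0479) and GINS2 (-0.55 ± 0.09, adjusted p = 0.0495). At an unadjusted p under 0.05, 14 members were lower, beside 8.22% of all genes, and both arrays were below both for 23 members, beside 25.6% of all genes. MCM3 (-0.45 ± 0.09, adjusted p = 0.0809) and MCM10 (-0.43 ± 0.09, adjusted p = 0.0871) followed. GINS4, the member with the smallest p in shRING1B against shGFP, was at -0.21 ± 0.10 (95% interval -0.44 to 0.03, adjusted p = 0.374) between shEZH2 and shRING1B. With shEZH2 against shBMI1, 28 of 29 members were again negative, beside 51.1% of all genes, with a median of -0.31 and a range of -0.51 to 0.09, the highest being CCNE1. MCM5 (-0.51 ± 0.08, adjusted p = 0.0381) and MCM10 (-0.50 ± 0.09, adjusted p = 0.0493) were called lower, 2 of 29 beside 0.282% of all genes, and 0 were called higher, beside 0.692% of all genes. At an unadjusted p under 0.05, 18 members were lower, beside 7.32% of all genes, and both arrays were below both for 26 members, beside 24.1% of all genes. GINS2 (-0.48 ± 0.09, adjusted p = 0.0565) and UHRF1 (-0.46 ± 0.09, adjusted p = 0.0664) came next. MCM5 was thus called lower in shEZH2 cells against each of the other 3 hairpins, all of which use the same 2 shEZH2 arrays, and leaving out any 1 of the 8 arrays ended the calls in both comparisons between knockdowns as well.

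Between the Polycomb repressive complex 1 knockdowns, shRING1B against shBMI1, 18 of 29 members were negative, beside 48.8% of all genes, and the median was -0.02. Its sign rested on 1 array: it was 0.058 without the shRING1B array labelled 1 and -0.076 without the one labelled 2. No member was called by limma, beside 0% of all genes lower and 0.0134% higher, and 1 was lower at an unadjusted p under 0.05, beside 3.98% of all genes. Both shRING1B arrays were below both shBMI1 arrays for 5 members, beside 17.1% of all genes. The member lower at the unadjusted p was again GINS4 (-0.25 ± 0.10, adjusted p = 0.515). RRM1 (-0.15 ± 0.09, adjusted p = 0.702), MCM7 (-0.11 ± 0.09, adjusted p = 0.79) and CCNE1 (0.10 ± 0.09, adjusted p = 0.818) had the next smallest p-values.

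Other genes of the pathway, taken from 6 lists that do not overlap the members, lay on the same side. Of their 79 measured genes, 70 were negative with shEZH2 against shGFP, with a median of -0.17, and 0 were called by limma, while 30 were lower and 1 was higher at an unadjusted p under 0.05. Over all genes, 51.9% were negative, 8.65% were lower at that p, 0.175% were called lower and 0.558% called higher. All 18 measured partners of licensing and firing were negative (median -0.25), among them CDC25A, the phosphatase that activates CDK2 (-0.37 ± 0.08, adjusted p = 0.0892), DBF4B, a partner of CDC7 (-0.39 ± 0.08, adjusted p = 0.0874), and RECQL4, which acts in origin firing (-0.38 ± 0.08, adjusted p = 0.0892). All 10 polymerase and Okazaki partners were negative (median -0.19), with the nucleases EXO1 at -0.45 ± 0.12 (adjusted p = 0.135) and DNA2 at -0.44 ± 0.12 (adjusted p = 0.132), and the mismatch repair protein MSH6 at -0.36 ± 0.09 (adjusted p = 0.115). For the nucleotide genes 14 of 16 were negative (median -0.14), with DUT, which removes dUTP, at -0.48 ± 0.10 (adjusted p = 0.0892), CTPS1, which makes CTP, at -0.41 ± 0.09 (adjusted p = 0.0874) and the thymidylate kinase DTYMK at -0.39 ± 0.08 (adjusted p = 0.0896).

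The S-phase chromatin list had 7 of 8 genes negative (median -0.14), with the maintenance methyltransferase DNMT1 at -0.39 ± 0.08 (adjusted p = 0.0892), CASP8AP2, which acts in histone gene expression, at -0.28 ± 0.09 (adjusted p = 0.182) and the histone chaperone NASP at -0.25 ± 0.08 (adjusted p = 0.217). In the E2F, RB and G1/S list 19 of 25 were negative (median -0.15), with the RB relative RBL1 at -0.42 ± 0.11 (adjusted p = 0.123), DTL, which marks CDT1 for destruction, at -0.39 ± 0.09 (adjusted p = 0.0972), and the E2F partner TFDP1 at -0.27 ± 0.09 (adjusted p = 0.2). Of 8 genes with CDKN symbols, listed as CDK inhibitors by name, only 2 were measured. They were CDKN3 at -0.39 ± 0.10 (adjusted p = 0.12) and CDKN2A at -0.02 ± 0.09 (adjusted p = 0.939). Against the other knockdowns, CDC25A fell with shEZH2 against shRING1B by 0.50 ± 0.08 (adjusted p = 0.0451), and RECQL4 fell with shEZH2 against shBMI1 by 0.54 ± 0.08 (adjusted p = 0.0282). Each was the 1 gene of the 79 called in its comparison. Over all genes, 0.222% and 0.282% were called lower in these comparisons, and 0.356% and 0.692% higher. With shRING1B against shGFP 59 of the 79 were negative (median -0.06), beside 50.8% of all genes. With shBMI1 against shGFP 49 were negative (median -0.03), beside 53.4% of all genes. In both, 0 were called by limma, beside 0% of all genes lower and 0% higher. At an unadjusted p under 0.05, 2 and 1 were lower, beside 3.8% and 2.69% of all genes.

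A list of 24 measured mitosis genes, which peak after replication, was set beside the members. With shEZH2 against shGFP 23 of them were negative with a median of -0.27, beside 51.9% of all genes negative. At an unadjusted p under 0.05, 17 were lower, beside 8.65% of all genes. By limma 0 were called, beside 0.175% of all genes called lower and 0.558% higher. The proliferation marker MKI67 was at -0.47 ± 0.10 (adjusted p = 0.0892), the kinesin KIF20A at -0.45 ± 0.10 (adjusted p = 0.0954) and the kinase AURKB at -0.45 ± 0.09 (adjusted p = 0.0762). With shRING1B against shGFP all 24 were negative, beside 50.8% of all genes. Their median was -0.14, beside -0.05 for the replication members. By limma 0 were called, beside 0% of all genes lower and 0% higher, and 2 were lower at an unadjusted p under 0.05, beside 3.8%. The shRING1B arrays differed here too: the mean difference of the 24 genes from their mean over the 8 arrays was -0.11 and 0.02 on the shRING1B arrays, and 0.11 and 0.10 on the shGFP arrays. With shBMI1 against shGFP 9 of the 24 were negative (median 0.02), beside 53.4% of all genes. Of the 24, 0 were called, beside 0% of all genes lower and 0% higher. At an unadjusted p under 0.05, 0 were lower, beside 2.69% of all genes. The difference between the mitosis list and the members was not tested in any comparison.

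**Figure D5:**
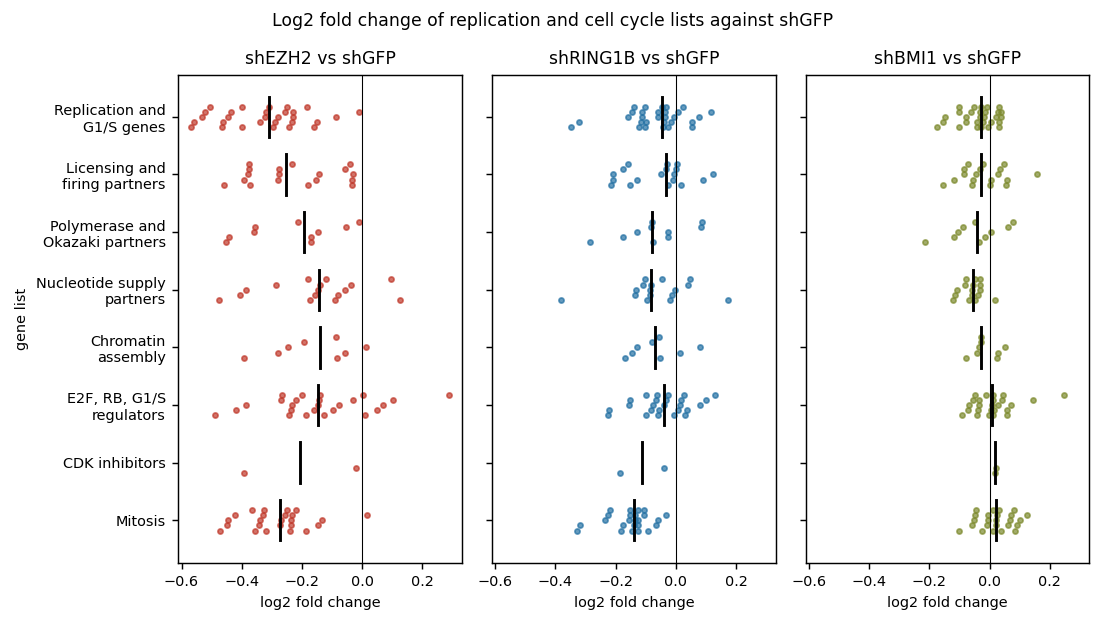
Log2 fold change against shGFP (one axis for each knockdown) of the 29 members, the 6 pathway lists and the mitosis list, with a point for each gene and a black tick at the median of the list. With shEZH2 the medians lie between -0.31 for the members and -0.14, and with shBMI1 they lie close to 0.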

How the data were processed

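The authors deposited log2 expression values per probe set, made with RMA. This is per the submitters' processing notes, where limma is named too. Of these tools no version, and of the genome no build, is stated (not given in the sources used here). Because RMA equalizes the distributions of the arrays, a change common to most genes is removed, and differences of dim probe sets are compressed. Array medians were 5.49 to 5.52. Of 53617 probe sets, 16098 had 1 gene symbol in the array's annotation table, updated through a RefSeq gene table. The other 37519 had no symbol or more than 1 and were not used for the named genes. Where a gene had several named probe sets, the one with the highest mean was used, which left 14884 genes.

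A mean per hairpin was fitted over all 8 arrays with limma 3.58.1 in R 4.3.3 (4 residual degrees of freedom, empirical Bayes). Tests were two-sided, p-values were Benjamini-Hochberg adjusted over 14884 genes in each of 6 comparisons, and called means an adjusted p under 0.05. The script was tested on simulated data. An exact permutation test of 2 arrays against 2 cannot go below p = 0.333, so none is given. The small number of arrays limits the precision. Errors are standard errors of the fit.

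The members, the pathway and marker lists and the naming rule were chosen with earlier results of these data known. By that rule, values on every array are given for members called in any comparison, for the 12 with the smallest p in shEZH2 against shGFP and for the 4 with the smallest p in each other comparison, and pathway genes are named if called or among the 3 smallest p of their list. Motifs were searched by exact match. Alternatives changed the model (a block for the replicate number, array weights, a trended robust variance), the arrays (only those compared, none of shEZH2, each left out in turn), the scaling (a further quantile normalization or centring on medians) and the features (without the dimmest 30%, all probe sets, or probe sets averaged per gene).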

Additional observations from a re-analysis of the deposited data

How the results depend on the processing

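The number of members called depended on the setting, while the median stayed negative for shEZH2 against each other hairpin. For shEZH2 against shGFP, shRING1B and shBMI1, in that order and from 2 called in each, the count was 1, 0 and 1 with the replicate number as a block, 0, 0 and 0 with only the 4 arrays compared, 1, 0 and 1 after quantile normalization, 8, 7 and 7 without the dimmest 30% of genes, 0, 0 and 0 over all probe sets, and 13, 9 and 14 with a trended robust variance. The member left against shGFP under the block and after quantile normalization was MCM5, with MCM10 at an adjusted p of 0.0528 and 0.0724. Array weights gave 4 against shGFP (1.17% of all genes), and median centring gave 4 against shBMI1 (1.03%). Leaving out 1 array at a time gave 0 to 0 in all 3. The other 3 comparisons had 0 members called in every setting run, the fit without the shEZH2 arrays included. The causes of these changes were not tested.

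The median log2 fold change over the members with 1 array left out lay between -0.37 and -0.30 for shEZH2 against shGFP, -0.31 and -0.20 for shEZH2 against shRING1B, -0.10 and 0.0060 for shRING1B against shGFP, -0.076 and 0.058 for shRING1B against shBMI1, and -0.068 and -0.0093 for shBMI1 against shGFP. With median centring it was -0.36 for shEZH2 against shBMI1. Single values that changed sign with shEZH2 against shGFP were CCNE1, at 0.043 after quantile normalization and between -0.046 and 0.026 with 1 array left out, and CCNE2, between -0.53 and 0.012 with 1 array left out. None of these was called. The other 27 members stayed negative in every setting run.

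Deviations from the hairpin mean, over all genes, were compared between arrays of the same replicate number in every pair of hairpins. The correlations were 0.000656 (with shRING1B) to 0.0859 in pairs with shEZH2 and 0.0914 to 0.248 in the others. The median member difference, array 2 minus array 1, was 0.013 with shEZH2, 0.10 with shRING1B, 0.029 with shBMI1 and 0.051 with shGFP. A shared effect of the number was not tested. The labels do not say that a number marks a shared day or culture, so the main fit took the numbers as names only. With 2 arrays a hairpin the intervals are wide, as for MCM5 (-0.76 to -0.37), and a difference of 0.1 log2 units could not be told from the spread.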

Other observations

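The second probe set of GINS4 was dim, at 4.95 and 4.82 with shEZH2 and 5.33 and 4.99 with shGFP, and that of CLSPN was at 3.98 and 3.72 with shEZH2 and 4.31 and 4.58 with shGFP. In both the shEZH2 arrays were below the shGFP arrays, as they were for 27% of all genes. All these values were under the lowest array median of 5.49. With shRING1B the second GINS4 probe set was at 4.87 and 5.07, which overlaps shEZH2. That of CLSPN was at 4.09 and 4.09 with shRING1B, above shEZH2.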
